A study of Mus musculus with 37 samples.

Results

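The cytoplasmic ribosomal protein genes encode the protein parts of the ribosome that translates nuclear mRNAs. They were taken as the protein-coding genes whose symbol starts with Rpl or Rps followed by a digit, plus Rplp0, Rplp1, Rplp2 and Rpsa. The 10 Rps6k kinase genes and the 5 protein-coding symbols with -ps were left out. This rule found 86 of the 21975 genes listed in the tables. By role, 43 encode proteins of the large subunit, 31 of the small subunit and 3 of the acidic stalk of the large subunit (Rplp0, Rplp1 and Rplp2). A further 8 have the symbol of a paralog or copy of another member (Rpl3l, Rpl7l1, Rpl10l, Rpl22l1, Rpl36al, Rpl39l, Rps27l and Rps27rt). The last, Rps19bp1, is caught by its symbol but encodes a binding partner of RPS19 and not a ribosomal protein. The symbol rule does not reach genes such as Fau and Rack1, which encode ribosomal proteins under other names and are described apart.

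The libraries were RNA-seq of hippocampal astrocytes, taken 4 months after a controlled cortical impact (CCI), a piston injury to 1 side of the cortex. Injured mice that developed post-traumatic epilepsy in EEG and video recordings are PTE+, injured mice that did not are PTE-, and sham mice had no impact. The astrocytes were captured with magnetic beads against ACSA-2, an astrocyte surface antigen, so the libraries are bulk RNA of a captured fraction. The hemisphere with the impact is the ipsilateral one, and the other is the contralateral one. All mice were wild type, with CD1 as the strain in the study's methods and CD31 as the word in the labels, and the methods describe them as adult males. The contralateral groups held 5 PTE+, 10 PTE- and 5 sham mice, and the ipsilateral groups held 4 PTE+, 8 PTE- and 5 sham mice. The 37 libraries came from 20 mice, of which 17 had a library from both hemispheres. Each mouse is a biological replicate and is named as in the labels, with the prefix a8 or a9, whose meaning was not given in the sources used here.

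A ribosome is built from 2 subunits, in which ribosomal RNA carries out decoding and peptide bond formation and the proteins fold, stabilize and regulate it. Because each subunit holds most of its proteins in a single copy, cells keep the output of these genes roughly matched. Their mRNAs typically begin with a 5′ terminal oligopyrimidine (TOP) tract, a C followed by a run of C and T, through which mTORC1 and LARP1 control their translation. In astrocytes, ribosomes are found in the soma and in the fine processes, where some proteins are made locally.

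The start of 8 members is given here to show the TOP run, which was found in only part of the group. The 8 were picked from the members named in the text, so their share with a run is not that of the group. Rps6, Rplp2, Rpl38, Rps27 and Rps27rt have a TOP run that begins at the annotated start, Rpl13a and Rps2 have one a few bases downstream, and Rpl6 has none in the first bases. Each sequence runs from 10 bases before the annotated RefSeq start to 20 bases from the start on, in GRCm38.p6, written 5′ to 3′ on the strand of the gene, with the pyrimidine run in capitals.
Rps6, chr4:86857348-86857377, minus strand: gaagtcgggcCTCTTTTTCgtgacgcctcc
Rplp2, chr7:141447641-141447670, plus strand: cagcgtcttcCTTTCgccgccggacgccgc
Rpl38, chr11:114668570-114668599, plus strand: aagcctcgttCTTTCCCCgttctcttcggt
Rps27, chr3:90213629-90213658, minus strand: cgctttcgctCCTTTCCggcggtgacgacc
Rps27rt, chr9:114982720-114982749, minus strand: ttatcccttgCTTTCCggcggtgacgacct
Rpl13a, chr7:45128726-45128755, minus strand: cctgcgacaagaCCTCCTCCTTTCCCaggc
Rps2, chr17:24720053-24720082, plus strand: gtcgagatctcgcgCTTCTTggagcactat
Rpl6, chr5:121204491-121204520, plus strand: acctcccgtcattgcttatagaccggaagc

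A window around the start was held by RefSeq for 66 of the 86 members. A run of a C and at least 4 further pyrimidines (C or T), read on the strand of the gene only, began at the annotated start in 13 of the 66 members (19.7%). The same run began there in 673 of the 27025 genes with a window (2.49%). With up to 5 bases of shift from the annotated start, 29 of 66 members (43.9%) and 18.5% of all genes held such a run. The longest run shown, in Rpl13a, had 14 pyrimidines and began 2 bases into the transcript, whereas that of Rps2 had 6 and began 4 bases in. A match describes these letters alone, and annotated starts can lie some bases away from the start used in a tissue.

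The members also stood apart from other genes in gene structure. Their median summed exon length was 1736.5 bases, against 3522 over the 21783 protein-coding genes listed. In 30 of the 86 members (34.9%) the gene contained at least 1 small nucleolar RNA gene, against 1.19% of all protein-coding genes, and these 30 held 58 such genes. Small nucleolar RNAs guide the chemical modification of ribosomal RNA, and many are cut out of the introns of ribosomal protein transcripts. Rpl4, a large-subunit protein, held 5 of them. The members lay on 19 chromosomes, with 14 on chromosome 7.

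Before the results, the libraries themselves were examined. They held between 25371887 and 59846479 estimated counts and between 9020 and 15545 detected genes. Astrocyte markers such as Aqp4, Slc1a2 and Gja1, a list of 10, summed to between 14501 and 26915 TPM (transcript abundance scaled by gene length and to a fixed total per library) in 36 libraries, and all 10 were detected in every library. The library that stood apart was the ipsilateral one of PTE- mouse a8_11, with 9020 detected genes and 7559 TPM of astrocyte markers. This library also had the highest summed level of the ribosomal protein genes. The member medians of the group comparisons with PTE- mice are given with and without this mouse. Most group means and SDs, and the values by role, TOP run and gene list, include it. Markers of other cells were present at varied levels. Over the libraries, 9 neuron markers summed to between 61.3 and 1250 TPM, 10 microglia markers to between 27.1 and 1390 TPM and 10 oligodendrocyte markers to between 311 and 2189 TPM. In the same way, 10 endothelial and mural markers summed to between 811 and 8154 TPM and 8 ependymal and choroid plexus markers to between 319 and 10817 TPM.

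The ribosomal protein genes were highly and broadly expressed in these astrocytes. Of the 86 members, 74 had more than 3 counts in each of the 37 libraries. The median of their mean levels was 135.3 TPM contralaterally and 147.1 TPM ipsilaterally, against 15.5 and 15.6 TPM over all genes tested. In the contralateral hemisphere 59 members had a mean level above 100 TPM, and in the ipsilateral hemisphere 61 had. Together the members took between 0.843% and 3.14% of all transcripts of a library. The order of the members by mean TPM was nearly the same in both hemispheres, with a Spearman rho of 0.98 across the 84 members above 0 in both. The members are not independent replicates and many of the mice are shared.

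The large-subunit proteins had a median mean level of 163.5 TPM contralaterally and 160.7 TPM ipsilaterally, and the small-subunit proteins 128.2 and 146.0 TPM. Rpl13, a large-subunit gene, was among the highest members, with 712 ± 187 TPM (SD, n = 20) contralaterally and 716 ± 289 TPM (SD, n = 17) ipsilaterally. Rps2, a protein near the mRNA entry channel of the small subunit, followed at 470 ± 319 and 483 ± 216 TPM, and Rpl41, which encodes a very short peptide bridging the subunits, stood at 452 ± 198 and 471 ± 207 TPM. The SDs of Rps2 and Rpl41 are wider than the gap between their means, and their order within libraries was not tested.

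Among the large-subunit genes with defined roles, Rpl3, next to the peptidyl transferase centre, stood at 207 to 248 TPM in the 3 contralateral group means. The partners Rpl5 and Rpl11, which bind 5S ribosomal RNA and also restrain MDM2 and so stabilize p53, stood lower, at 60.4 to 73.1 TPM for Rpl5 and 110.0 to 130.2 TPM for Rpl11 in the same groups. Rpl38, known for the translation of Hox mRNAs, averaged 269 ± 84.2 TPM contralaterally and Rpl39, a small protein of the exit tunnel, 37.8 ± 16.7 TPM. Rpl22, an RNA-binding protein at the surface, was the lowest large-subunit gene of the contralateral hemisphere, at 33.5 ± 14.5 TPM, and Rpl12 was the lowest of the ipsilateral one, at 36.7 ± 16.6 TPM. Rpl10, placed late in subunit maturation, had 97.8 ± 54.5 and 85.3 ± 36.6 TPM. Rpl26, which also binds the p53 mRNA, had contralateral group means of 227 to 259 TPM.

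Among the small-subunit genes, Rps6, the substrate of the S6 kinases downstream of mTORC1, had group means between 184 and 263 TPM. Rps19, mutated in Diamond-Blackfan anaemia, averaged 205 ± 99.8 TPM contralaterally and 238 ± 145 TPM ipsilaterally. Rps27a, which is made as a fusion with ubiquitin, averaged 106 ± 45.3 and 109.7 ± 50.6 TPM. Rps3, which lines the mRNA entry channel and also acts in DNA repair, was lower, with group means between 47.3 and 112 TPM. Rps15a had the lowest contralateral mean of the subunit, 38.6 ± 24.2 TPM, and Rps20 the lowest ipsilateral one, 31.4 ± 14.3 TPM. The stalk genes, whose proteins recruit elongation factors, had the highest median of the role groups, at 245.0 TPM contralaterally and 271.7 TPM ipsilaterally.

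**Figure D1:**
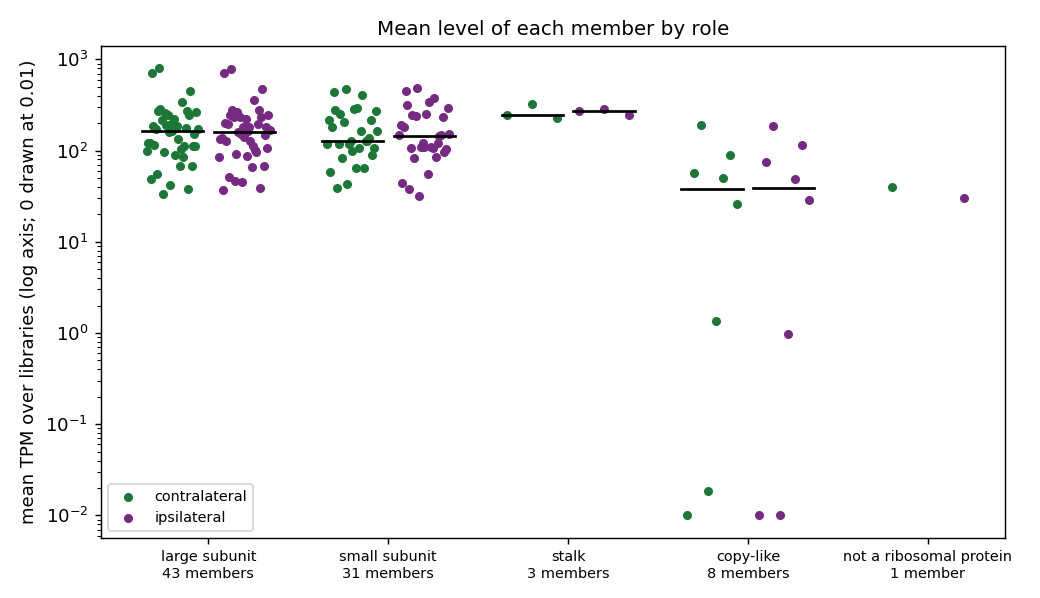
Mean TPM of each member over the 20 contralateral (green) and 17 ipsilateral (purple) libraries, on a log axis, by role, with the median of each role as a line and 0 drawn at 0.01. Large-subunit, small-subunit and stalk genes sit at 31.4 TPM or above, while 3 of the 8 copy-like members fall below 1.5 TPM.

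The copy-like members split into expressed and nearly silent genes. Rpl36al averaged 189.1 ± 80.02 TPM contralaterally and 184 ± 105 TPM ipsilaterally, within the range of the standard subunit genes. Rps27l, a p53-inducible relative of Rps27, averaged 90.5 ± 44.4 and 116 ± 76.7 TPM. Rpl22l1, Rpl7l1 and Rps27rt had mean levels of 56.6, 50.5 and 25.7 TPM contralaterally. Rpl10l, which substitutes for Rpl10 in male germ cells, had 0 counts in all 37 libraries, so it lay under the limit of 3 counts per library that a count of 0 allows. Rpl39l, also a germ cell gene, had 7 counts (0.37 TPM) in the contralateral library of PTE- mouse a8_11 and 0 in the other 36 libraries.

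Rpl3l, the muscle form of Rpl3, was detected in 10 of the 37 libraries and had 0 counts in the other 27. Contralaterally it stood at 5.45, 1.24 and 5.38 TPM in 3 of the 5 PTE+ mice, at 2.75, 1.63 and 6.99 TPM in 3 of the 10 PTE- mice and at 3.43 TPM in 1 of the 5 sham mice. Ipsilaterally it stood at 6.0 and 3.28 TPM in 2 of the 4 PTE+ mice and at 7.14 TPM in 1 of the 5 sham mice. All 8 ipsilateral PTE- libraries were at 0. Where Rpl3l was detected it had between 30 and 243 counts, so no library held a value between 0 and 30 counts. Whether the libraries at 0 lacked the transcript or failed to capture it was not tested.

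Gaps of the same kind were found in standard subunit genes. Rps10, Rps12 and Rps15a of the small subunit and Rpl22 and Rpl34 of the large subunit each had 3 counts or fewer in 1 contralateral library. Rpl12, Rpl17 and Rps28 did so in 1 ipsilateral library, and Rpl22l1 in 1 library of each hemisphere. In the ipsilateral library of mouse a8_11, Rpl12 and Rps28 were at 0 and Rpl17 at 0.15 TPM, while the other 7 ipsilateral PTE- libraries had a highest level of 62.2, 189.9 and 86.4 TPM for these genes.

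Read assignment limits some of these levels. Exact stretches of 100 bases of the coding transcripts were compared between each member and all other listed genes. A shared stretch was found for 26 of the 86 members, and in 16 of them over 20% of the stretches were shared. The highest share was 89.5% in Rps27rt, all with Rps27. It was 84.4% in Rpl10, shared with Rpl10-ps3, and 55.2% in Rpl13a, shared with Gm45713. Rps27 had 57.9%, Rps18 56.0%, Rps10 47.7% and Rpl5 43.9%, and Rps2 and Rpl6 had none with a listed gene. Of the 21975 listed genes, 21783 are protein-coding, and stretches shared with genes that are not listed were not searched. A share of none, as for Rps2 and Rpl6, therefore does not cover such genes. The levels of the members with shared stretches are uncertain to the extent that the estimated counts were divided between such loci.

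The summed level of the 86 members gave no separation of the groups. Contralaterally it was 16101 ± 3803 TPM in PTE+ (SD, n = 5), 14622 ± 4628 TPM in PTE- (n = 10) and 14249 ± 3297 TPM in sham mice (n = 5). Ipsilaterally it was 12956 ± 2567 TPM in PTE+ (n = 4), 16984 ± 6341 TPM in PTE- (n = 8) and 13510 ± 3221 TPM in sham mice (n = 5). The lowest, the median and the highest ipsilateral PTE- libraries had 10396, 15095 and 31382 TPM, and the ipsilateral PTE+ libraries had between 10475 and 16492 TPM. The ranges of all groups overlapped within each hemisphere. In bulk libraries, a lower share of a gene group in fewer cells and a lower amount per cell cannot be told apart.

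**Figure D2:**
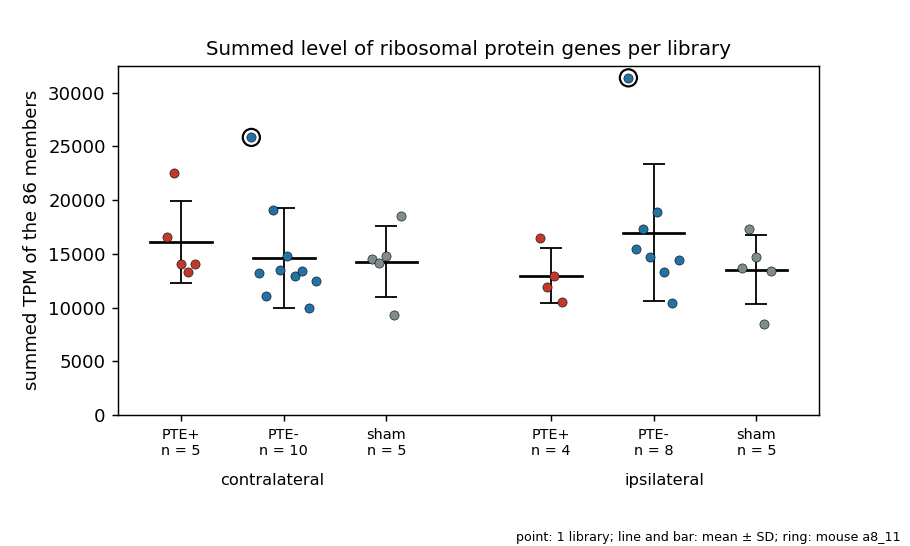
Summed TPM of the 86 members in each library, by group and hemisphere, with the mean and SD of each group as lines and mouse a8_11 ringed. The ringed libraries are the highest of each hemisphere, at 25836 TPM contralaterally and 31382 TPM ipsilaterally, and the group ranges overlap.

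The members varied less between mice of a group than most genes did. For each member the SD of log2(CPM + 1) around the group means was taken, where CPM is the count scaled to a fixed library total. The median SD was 0.72 contralaterally over 84 members and 0.80 ipsilaterally over 83 members, against 1.30 and 1.45 over all genes tested. The 78 genes of the mitochondrial ribosome, a separate machine with its own proteins, had medians of 0.82 and 0.92. Genes with a mean above 5 TPM had medians of 1.31 and 1.52. That minimum lies far below the typical level of the members, so the part of level in the gap was not tested. Without the library with the fewest detected genes in each hemisphere, the members' medians were 0.69 and 0.59, and those of all genes tested were 1.19 in both hemispheres. The medians of the mitochondrial ribosomal genes were then 0.72 and 0.62, close to those of the members.

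Within the group, spread differed by gene. Contralaterally the steadiest members were Rpl27, with an SD of 0.47, Rpl4, with 0.48, and Rpl28, with 0.49. Ipsilaterally they were Rpl18 (0.42), Rpl3 (0.44) and Rps19bp1 (0.51). The widest contralateral members included Rpl22 (1.604) and Rps12 (1.48), and each of them had a library at 0. Rpl22 was at 0 in PTE- mouse a9_14, and Rps12 was at 0 in PTE- mouse a9_20, in which fewer genes were detected than in any other contralateral library. The widest ipsilateral members were Rps3 (1.59), Rpl22l1 (1.37) and Rps10 (1.28).

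Rps3 shows how 1 library shapes such a value. Its ipsilateral levels were 58.3, 51.9, 78.5 and 0.50 TPM in the PTE+ mice, the last in mouse a9_19. In the PTE- mice they ran from 24.9 TPM through a median of 71.4 TPM to 303 TPM, the last in mouse a8_11, and in the sham mice they were 66.6, 86.3, 99.2, 58.8 and 41.9 TPM. The contralateral library of mouse a9_19 had 46.3 TPM.

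Much of the members' variation was shared, in that whole libraries stood high or low. For each library, the deviation of each member from its group mean was taken on the log2(CPM + 1) scale, and the median over members was used as the library's shift. This shift took up 40.5% of the members' variance contralaterally and 31.4% ipsilaterally. The same measure gave 10.2% and -1.18% for the mitochondrial ribosomal genes, a negative value meaning that removing the shift added variance. It gave 4.80% and 13.6% for all genes tested. The median correlation between pairs of members was 0.52 contralaterally over 20 libraries and 0.53 ipsilaterally over 17 libraries. Of the pairs, 94.5% and 83.5% were positive. For genes above 5 TPM the median correlation was 0.03 and 0.13. These correlations share the libraries and their scaling. On log2(TPM + 1) the shift took up 21.4% of the members' variance contralaterally and 12.97% ipsilaterally. For all genes tested it took up 5.01% and 14.3% on that scale, so ipsilaterally the members' share was no higher there.

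Single libraries moved nearly all members in 1 direction. In the contralateral library of PTE- mouse a8_11 all 84 members were above their group mean, with a median deviation of 1.37. In that of PTE+ mouse a8_17, 83 of 84 were above, with a median of 0.72, and in that of sham mouse a9_9, 79 were. At the other end, 79 of 84 members were below the group mean in sham mouse a9_11, with a median of -0.78, and 78 were below in PTE- mouse a9_16. In the ipsilateral hemisphere, 74 of 83 members were above the mean in mouse a8_11, with a median of 1.65, while the median of all genes tested in that library was -1.40. In PTE- mouse a9_15, 79 of 83 members were below, with a median of -0.71, and in sham mouse a9_11, 76 were.

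The shift tended to be shared by the hemispheres of a mouse. Of the 17 mice with both libraries, 14 had shifts of the same sign in both, 6 of them positive and 8 negative. Ipsilaterally all 6 libraries with the prefix a8 had a positive shift and 9 of the 11 with the prefix a9 a negative one. Contralaterally 5 of the 8 with the prefix a8 had a positive shift and 9 of the 12 with the prefix a9 a negative one. These signs are relative to group means that include the high libraries of mouse a8_11, and they were not counted again without it. With mouse a8_11 left out, a choice made after seeing the data, the shift took up 28.2% of the members' variance contralaterally and 31.0% ipsilaterally. The part of library preparation in these shifts was not tested.

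**Figure D3:**
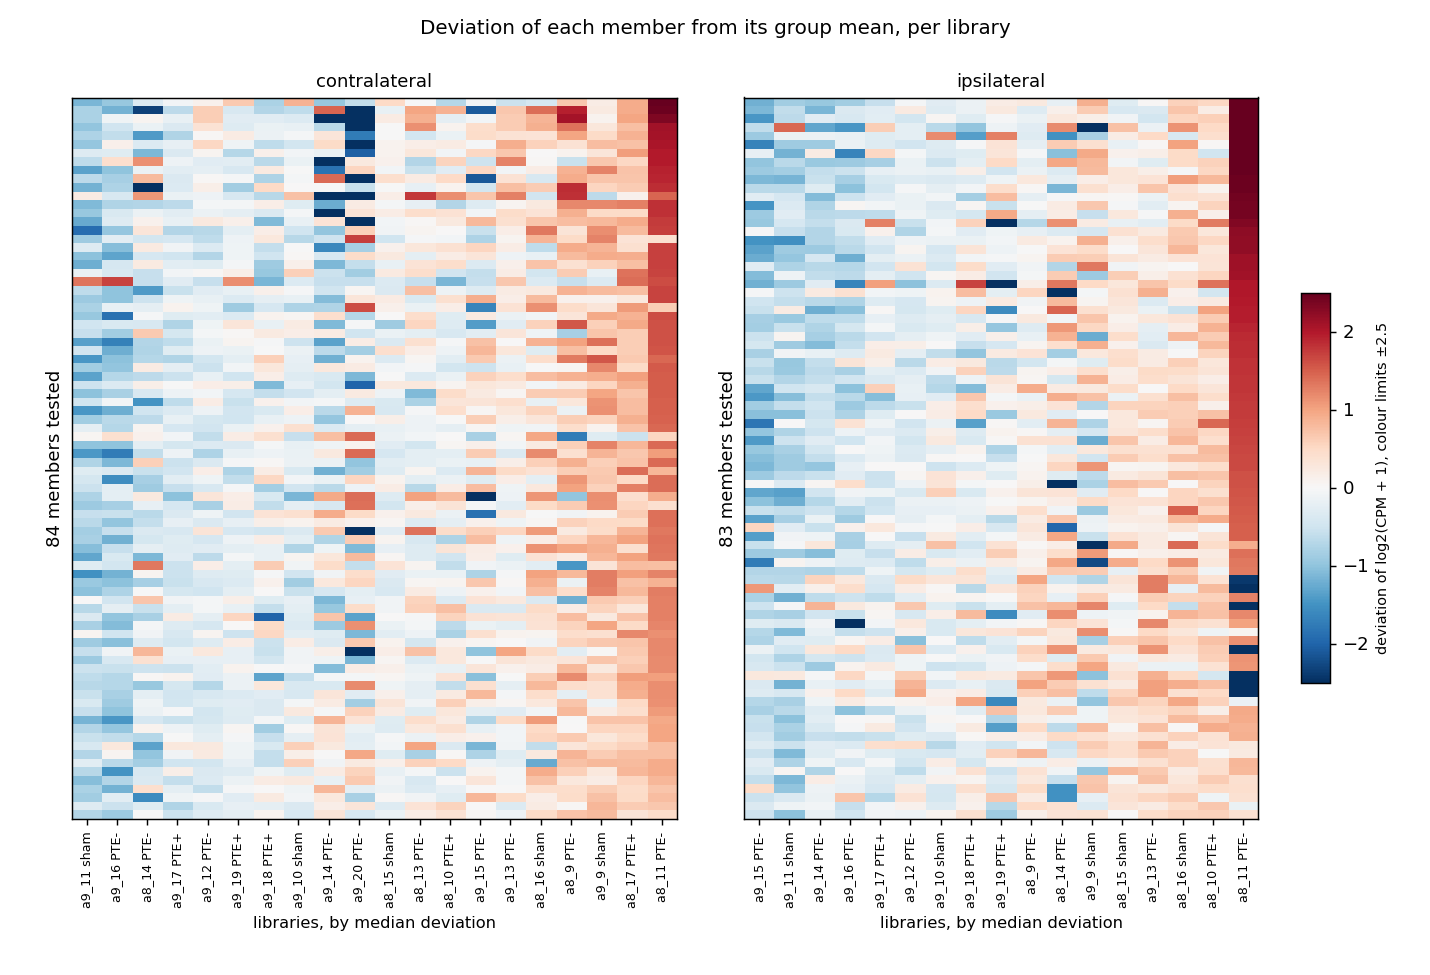
Deviation of log2(CPM + 1) of each tested member (rows, 84 contralateral and 83 ipsilateral) from its group mean in each library (columns, ordered by the median deviation), with red above and blue below the mean. Columns of 1 colour stand at both ends, from sham mouse a9_11 (median -0.78 contralaterally) to PTE- mouse a8_11 (1.37), and in the ipsilateral column of mouse a8_11 7 of the 9 members below the mean stand out in dark blue.

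The first comparison asked whether mice that developed epilepsy differed from injured mice that did not. Contralaterally they did not differ detectably in these genes. The median log2 fold change of the 84 members in PTE+ against PTE- was -0.11, with 26 members higher and 58 lower, and the median over all 14642 genes tested was -0.05. No member passed an adjusted p of 0.05 in edgeR's quasi-likelihood test (0.00683% of all genes did), and none had an unadjusted p under 0.05 (2.21%). By the study's criteria (unadjusted p under 0.05, a change of at least 1.2-fold and a mean above 5 TPM in at least 1 group) 0 of 83 members were called, against 1.63% of all genes above the level minimum. The study applied these criteria to DESeq2, whereas here they are applied to edgeR unless another tool is named. Without mouse a8_11 the median was 0.17. The sign also turned with the scale: with limma on log2(TPM + 1) and all mice the median was 0.27, with 68 members higher and 16 lower, and the median of all genes was 0.28. On log2(CPM + 1) the group means differed by a median of 0.018, with 44 higher and 40 lower. DESeq2 and limma also called 0 members by the criteria, against 3.04% and 5.1% of all genes. Without mouse a8_11 they called 1 and 2 members, all higher in PTE+, against 3.39% and 5.19% of all genes.

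Ipsilaterally most members were lower in PTE+ than in PTE- mice, but few passed edgeR's test. The median log2 fold change was -0.82, with 7 members higher and 76 lower of 83, while the median of all 14903 genes tested was -0.01. By role, 40 of 43 large-subunit genes, 29 of 31 small-subunit genes, all 3 stalk genes and 4 of 5 copy-like genes were lower, with medians of -0.67, -0.82, -0.90 and -1.59. No member passed an adjusted p of 0.05 in edgeR's test, as no gene did, and 2 had an unadjusted p under 0.05, against 1.75% of all genes. These 2, Rps2 and Rpl13a, met the study's criteria in edgeR, where 0.647% of all genes did. In DESeq2, the tool that the study used, 15 of 83 members met them (18.1%), against 2.05% of all genes. Without mouse a8_11, 4 members did in DESeq2 (4.82%), against 2.57% of all genes. With limma on log2(TPM + 1) the median was -0.32, with 19 members higher and 64 lower, while the median of all genes was 0.25. With the prefix as a covariate in edgeR it was -0.54. The fold changes share the 8 PTE- libraries, and members that vary together are not independent evidence.

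Rps2 (chr17:24718116-24721929, plus strand) had ipsilateral levels of 405, 327, 250 and 355 TPM in the 4 PTE+ mice. In the 8 PTE- mice it had 634, 1056, 623, 475, 463, 422, 233 and 545 TPM, and in the 5 sham mice 527, 579, 340, 784 and 201 TPM. The PTE+ values lay in the lower part of both other ranges and overlapped with them. The log2 fold change in PTE+ against PTE- was -1.03 (SE 0.46, edgeR unadjusted p = 0.0382, adjusted p = 1.0). An exact permutation test on log2(CPM + 1), 2-sided, gave a difference of -0.83 with p = 0.0687, and without mouse a8_11 -0.61 with p = 0.103. The smallest p this design allows is 0.00404 with all mice.

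Rpl13a (chr7:45125558-45128761, minus strand) encodes a large-subunit protein that also silences the translation of inflammatory mRNAs when it is released from the ribosome. Its ipsilateral levels were 148, 125, 171 and 78.1 TPM in the PTE+ mice. They were 235, 567.99, 217, 181, 273, 146, 136 and 157 TPM in the PTE- mice and 181, 227, 244, 214 and 116 TPM in the sham mice. The highest PTE+ level lay below 5 of the 8 PTE- levels, the levels of 78.1 and 125 TPM lay below all 8, and the ranges overlapped. The log2 fold change in PTE+ against PTE- was -1.29 (SE 0.60, edgeR unadjusted p = 0.0454, adjusted p = 1.0). The exact permutation test, 2-sided, gave -1.06 with p = 0.0323, and without mouse a8_11 -0.80 with p = 0.0485, before any correction for the number of members.

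**Figure D4:**
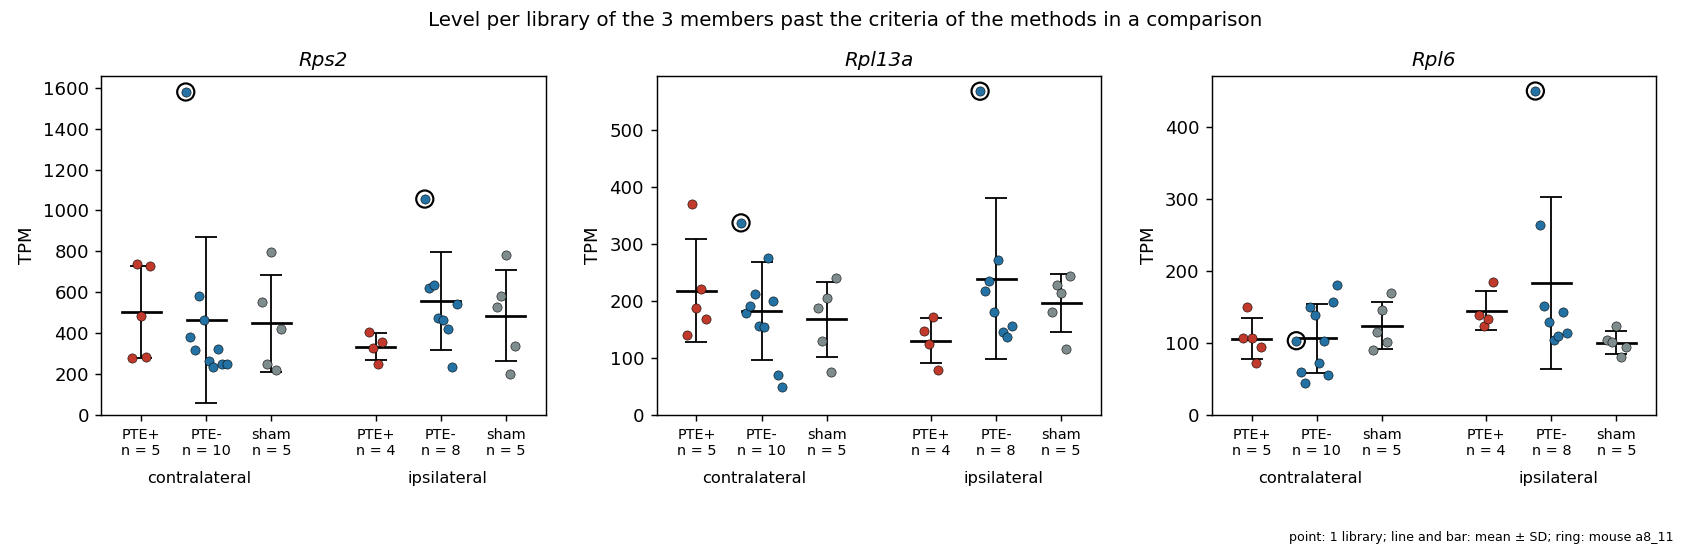
TPM of Rps2, Rpl13a and Rpl6 in each library by group and hemisphere, with group means and SDs as lines and mouse a8_11 ringed. The ipsilateral PTE+ points of Rps2 (250 to 405 TPM) lie within the lower part of the PTE- points, those of Rpl13a lie in or below it, with 78.1 and 125 TPM under all PTE- points, and the ipsilateral PTE- point of Rpl6 in mouse a8_11 stands at 450 TPM.

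The other named members in this comparison gave wide intervals. For the stalk, Rplp0 had 224 ± 53.6 TPM in PTE+ (SD, n = 4) against 336 ± 186 TPM in PTE- mice (n = 8), a log2 fold change of -0.90 (SE 0.47). Rplp1 had 225 ± 89.0 against 331 ± 108 TPM and Rplp2 224 ± 91.2 against 253 ± 137 TPM. Of the 5S partners, Rpl11 had 100.8 ± 48.3 against 176 ± 101 TPM and Rpl5 58.9 ± 13.6 against 75.4 ± 43.0 TPM. Of the small-subunit genes, Rps27 had 229 ± 26.5 against 438 ± 283 TPM, while Rps6 had 228 ± 83.6 against 229 ± 37.9 TPM. Rpsa, the laminin receptor precursor, had 141 ± 57.5 against 166 ± 55.4 TPM, and Rpl26 had a log2 fold change of -0.82 (SE 0.69). Rps4x, an X-linked small-subunit gene, was among the few in the other direction, at 194 ± 48.4 against 150.1 ± 68.9 TPM and a log2 fold change of 0.12 (SE 0.55). None of these had an unadjusted p under 0.05. The PTE- means include mouse a8_11, at 757 TPM for Rplp0 and 1097 TPM for Rps27. Rps19bp1, which is no ribosomal protein, had a log2 fold change of 0.25 (SE 0.73).

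The size of this ipsilateral difference depended on 1 mouse and on the test. Without mouse a8_11 the median log2 fold change was -0.30, and 0 members met the criteria in edgeR, against 0.835% of all genes. Within the prefix a9, with 3 PTE+ and 5 PTE- mice, the median difference of log2(CPM + 1) was -0.33 with 73 of 83 members lower. Within the prefix a8, with 1 PTE+ and 3 PTE- mice, it was -0.58, and -0.15 without mouse a8_11. On log2(TPM + 1) the same differences were -0.25 within a9 and -0.26 within a8, and without mouse a8_11 the a8 value turned to 0.062, with 45 members higher and 38 lower. DESeq2 called 15 members by the criteria, all lower in PTE+ (2.05% of all genes were called in either direction), among them Rplp1, Rps27, Rpl11, Rps2 and Rpl13a. Without mouse a8_11 it called 4 members (2.57% of all genes). limma on log2(TPM + 1) called 6 members, all lower (3.1% of all genes), and 4 without that mouse (3.31%).

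The second comparison asked what injury without epilepsy did against sham surgery. Contralaterally the median log2 fold change of PTE- against sham was 0.21, with 68 members higher and 16 lower, and the median of all genes tested was 0.07. By edgeR 0 members had an adjusted p under 0.05, as did 0 of all genes, 0 had an unadjusted p under 0.05 (1.54% of all genes) and 0 met the criteria (0.977%). DESeq2 and limma called 0 by the criteria, against 2.48% and 4.11% of all genes. The contralateral median was -0.081 without mouse a8_11. Ipsilaterally the median was 0.51, with 71 members higher and 12 lower of 83, and the median of all genes tested was 0.02. Again 0 members had an adjusted p under 0.05, 0 had an unadjusted p under 0.05 (1.58% of all genes) and 0 met the criteria in edgeR (1.31%). Rplp0 had a log2 fold change of 0.75 (SE 0.43) and Rpl6 of 0.96 (SE 0.48), with ipsilateral Rpl6 levels of 183 ± 119 TPM in PTE- and 100.7 ± 15.5 TPM in sham mice. An exact permutation test on log2(CPM + 1), 2-sided, gave a difference of 0.65 for Rpl6 with p = 0.137. Without mouse a8_11 the same test gave 0.37 with p = 0.222. Without mouse a8_11 the ipsilateral median was 0.16, and with limma on log2(TPM + 1) and all mice it was 0.28. DESeq2 called 7 members higher in PTE- (2.93% of all genes), and 1 without that mouse (3.61%). limma called 4 higher (3.46%), and 2 without it (4.03%).

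The third comparison set PTE+ against sham mice, which the a8_11 libraries enter only through the shared fit. Contralaterally the median log2 fold change was 0.05, with 49 members higher and 35 lower, and 0 members met the criteria, against 0.66% of all genes. Ipsilaterally the median was -0.22, with 18 higher and 65 lower, and 0 met the criteria, against 0.64% of all genes. With limma on log2(TPM + 1) the medians were 0.19 and -0.021. In both hemispheres edgeR gave 0 members with an adjusted p under 0.05 and 0 with an unadjusted one, which 1.23% of all genes had contralaterally and 1.66% ipsilaterally. DESeq2 called 0 by the criteria (1.23% and 1.2% of all genes), as did limma (1.52% and 2.19%). The 3 comparisons of a hemisphere share groups: a high PTE- mean enters the first and the second with opposite signs.

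**Figure D5:**
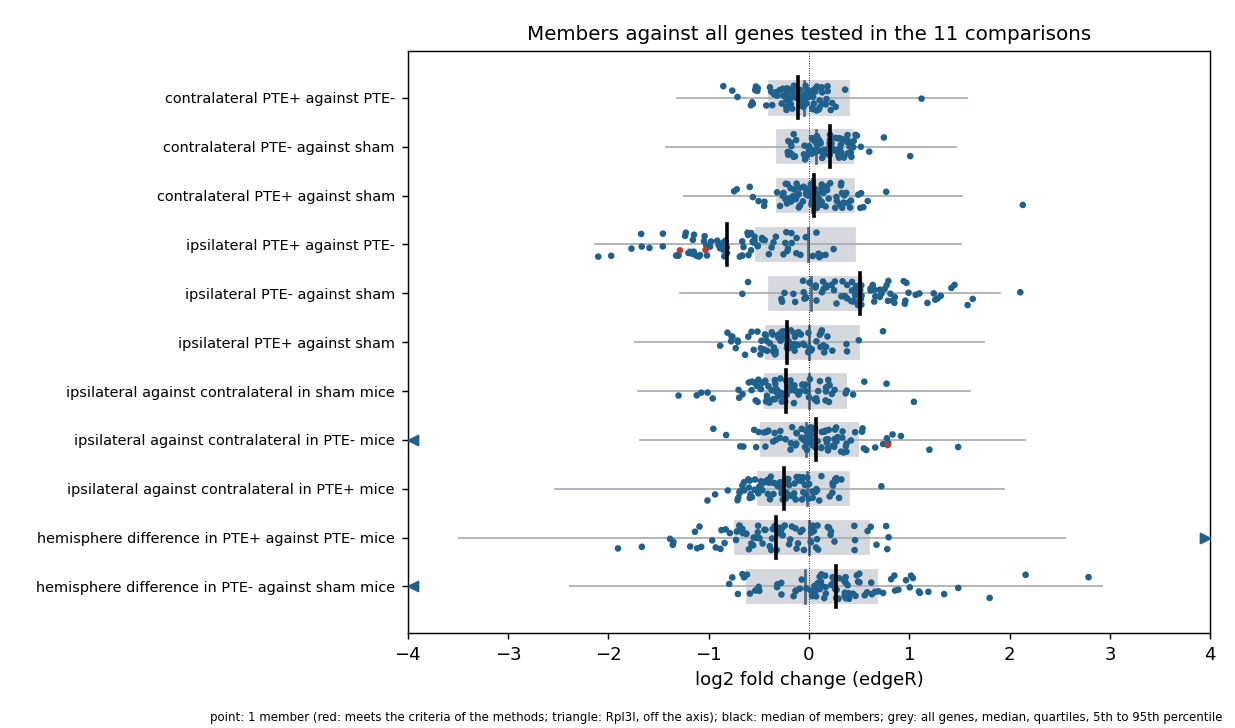
edgeR log2 fold change of each tested member (points) in the 11 comparisons, with the median of the members (black) over the median, quartiles and 5th to 95th percentile of all genes tested (grey); red points met the study's criteria and triangles mark Rpl3l, off the axis. The members' median departs most from 0 in ipsilateral PTE+ against PTE- (-0.82) and ipsilateral PTE- against sham (0.51).

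The hemispheres were compared within each group among the 17 mice with both libraries. The fits of this paragraph had no term for the mouse, so they did not use the pairing. Fits with the mouse as a block are given for Rpl6 and in the closing section. In sham mice the median ipsilateral against contralateral log2 fold change was -0.23, with 21 members higher and 63 lower. In PTE+ mice it was -0.25, with 18 higher and 66 lower, and in PTE- mice it was 0.07, with 50 higher and 34 lower. By edgeR, 0 members had an adjusted p under 0.05 in any group, and 0 had an unadjusted p under 0.05 in sham and PTE+ mice (2.05% and 2.93% of all genes) or met the criteria there (0.234% and 0.613%). DESeq2 called 0 members in these groups (0.567% and 0.997%) and limma 1 in each (1.2% and 2.32%). In PTE- mice 2 members had an unadjusted p under 0.05, against 4.56% of all genes, and 1 of them, Rpl6, met the criteria, against 2.43%. DESeq2 called 8 members in PTE- mice (5.13% of all genes), 6 of them higher ipsilaterally, and limma 3 (6.68%).

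Rpl6 (chr5:121204481-121209241, plus strand) encodes a large-subunit protein. In the 8 PTE- mice with both libraries, its contralateral and ipsilateral levels were 150 and 152 TPM in mouse a8_9, 103 and 450 TPM in a8_11, 45.0 and 264 TPM in a8_14 and 139 and 130 TPM in a9_12. They were 72.8 and 104 TPM in a9_13, 103 and 109 TPM in a9_14, 54.9 and 143 TPM in a9_15 and 158 and 114 TPM in a9_16. It was higher ipsilaterally in 6 of the 8 mice, with the widest gaps in a8_11 and a8_14. The log2 fold change was 0.78 (SE 0.36, edgeR unadjusted p = 0.0361, adjusted p = 0.94). With the mouse as a block, which the pairing by animal calls for, it was 0.55 with an unadjusted edgeR p = 0.126. An exact permutation test over the mice, 2-sided, gave p = 0.164. The call was therefore lost in the paired fit, in which 0 members met the criteria, against 2.03% of all genes.

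The other member with a small unadjusted p was Rpl3l, whose 0 counts in all 8 ipsilateral PTE- libraries stood against 3 detections in the 8 contralateral libraries of the same mice. Its edgeR unadjusted p was 0.0044, and the exact permutation test over the mice gave p = 0.25. Its mean stayed under the level minimum of the criteria. The fitted fold change against libraries at 0 depends on the prior count and is not given as an effect.

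The last tests asked whether the hemisphere difference itself differed between groups, again in fits without a term for the mouse. In PTE+ against PTE- mice the median difference of the log2 fold changes was -0.33, with 25 members higher and 59 lower. In PTE- against sham mice it was 0.27, with 63 higher and 21 lower. By edgeR 0 members had an adjusted p under 0.05, 1 member, Rpl3l, had an unadjusted p under 0.05 in each test (2.94% and 3.13% of all genes), and 0 met the criteria, against 0.933% and 1.05% of all genes. DESeq2 called 0 and 4 members by the criteria (1.98% and 2.11% of all genes) and limma 3 and 3 (2.75% and 3.1%).

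Over the 11 comparisons limma gave 0 members with an adjusted p under 0.05, and the only member with one in DESeq2 was Rpl3l, in 5 of them. These were ipsilateral PTE+ against PTE- (0.673% of all genes passed), ipsilateral PTE- against sham (0.411%), ipsilateral against contralateral in PTE- mice (1.05%) and both tests of the hemisphere difference (1.45% and 0.951%). Each of these includes the ipsilateral PTE- libraries, in which Rpl3l had 0 counts.

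The members were also grouped by the TOP run at their start. In ipsilateral PTE+ against PTE-, 12 of the 13 members with a run at the annotated start were lower, with a median log2 fold change of -0.84, as were 15 of the 16 with a shifted run (median -0.96). Of those without a run, 29 of 34 were lower (median -0.63), and of those without a window all 20 were (median -0.64). The median SD of log2(CPM + 1) lay between 0.67 and 0.73 contralaterally and between 0.75 and 0.84 ipsilaterally in the 4 classes. The difference between these classes was not tested.

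Genes around the ribosome were read from lists chosen by function. Fau and Rack1 did not meet the criteria in any of the 11 comparisons. In ipsilateral PTE+ against PTE-, their log2 fold changes were -0.70 (SE 0.53) for Fau, which encodes RPS30, and -0.32 (SE 0.47) for Rack1. A translation list held 15 genes with TOP mRNAs, mostly translation factors but also Tpt1, Npm1, Naca, Btf3 and Hnrnpa1. A checkpoint list held 7 genes chosen around the 5S ribosomal RNA and p53 checkpoint, among them Mdm2, Trp53, Rrp7a and Zfp622. Of these lists, 0 genes met the criteria in any comparison, where between 0.234% and 2.43% of all genes did. Of 20 ribosome biogenesis genes, 1 did, Gtpbp4, lower in contralateral PTE+ against PTE- (1.63% of all genes). Of 17 genes of mTORC1 and TOP control, 1 did, Larp4, higher ipsilaterally in PTE- mice (2.43%). Of 78 mitochondrial ribosomal protein genes, 1 did, Mrps11, lower ipsilaterally in PTE- mice (2.43%).

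By direction in ipsilateral PTE+ against PTE-, all 7 genes of the checkpoint list had negative log2 fold changes (median -0.57). So had 57 of the 78 mitochondrial ribosomal genes (median -0.20) and 10 of the 15 genes of the translation list (median -0.13). The ribosome biogenesis genes, 11 of 20 of them negative, had a median of -0.06, and the mTORC1 and TOP control genes, 6 of 17 negative, one of 0.07.

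In the ipsilateral library of mouse a8_11 these lists did not all move with the members. Its genes of the translation list summed to 2936 TPM, the highest of the ipsilateral PTE- libraries, and its mitochondrial ribosomal genes to 9064 TPM, also the highest, with 57 of 78 detected. Its ribosome biogenesis genes summed to 484 TPM and its mTORC1 and TOP control genes to 994 TPM, the lowest of the group. Of its neuron markers 5 of 9 were detected, and its ependymal and choroid plexus markers summed to 9941 TPM. The part of these genes or of other cell types in the level of the ribosomal protein genes was not tested. The marker lists were also read by direction, as values beside the result of the members. In ipsilateral PTE+ against PTE-, all 8 ependymal and choroid plexus markers had negative log2 fold changes (median -1.35), as had 8 of 10 microglia markers (median -0.83), while 7 of 10 astrocyte markers had positive ones (median 0.11). In ipsilateral PTE- against sham, all 8 ependymal and choroid plexus markers had positive values (median 1.73), as had 7 of 10 microglia markers (median 0.23). All 10 astrocyte markers had negative values there (median -0.38), and Aldoc met the criteria. The summed ependymal and choroid plexus markers ran from 417.3 to 1940 TPM in the ipsilateral PTE+, from 648 to 10817 TPM in the PTE- and from 417 to 2633 TPM in the sham libraries. Their medians were 1196, 1022 and 659 TPM, so the median PTE- level was not above the median PTE+ level. The summed microglia markers ran from 81.8 to 702, from 191 to 978 and from 129 to 1142 TPM, with medians of 301, 474 and 441 TPM.

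In ipsilateral PTE+ against PTE- no marker of the 6 cell type lists met the criteria (0.647% of all genes did). Over the 11 comparisons those that did at least once were Gjb6, Aldoc, Snap25, Mog, Ly6c1, Cldn5 and Ttr.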

How the data were processed

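The authors trimmed the reads of SMART-Seq V4 libraries with Trim Galore 0.6.4, aligned them with Bowtie2 2.4.1 to mm10 and quantified genes with RSEM 1.2.28, per the submitters' processing notes; the annotation release is not given in the sources used here. The deposited tables hold the authors' expected counts per gene (estimated counts, which RSEM divides among loci that share reads) and the authors' TPM, 1 column of each per library. All 74 columns were mapped to libraries. Expected counts were rounded to whole numbers and TPM values were used as deposited. The library totals were not used as a measure of independent molecules, since reads carried no molecular identifiers, so limits from counts cover counting error only.

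Gene symbols were matched for 21856 of the 21975 identifiers. Genes with enough counts by edgeR's default filter were kept in each hemisphere (14642 and 14903 genes) and in the 34 libraries of the 17 mice with both hemispheres (15731 genes), and tested with edgeR 4.0.16 (TMM scaling, quasi-likelihood F-test) in R 4.3.3, with 1 fit of all 3 groups. The common biological coefficients of variation were 1.32, 1.40 and 1.39. P-values were adjusted by Benjamini-Hochberg over all genes tested. The study's methods name DESeq2 1.36.0 instead, so edgeR's calls by the study's criteria are not the calls of the study. Of the 86 members, 84 contralateral, 83 ipsilateral and 84 in the fit of both hemispheres passed the filter. Rpl10l and Rpl39l passed in no fit and Rpl3l did not pass ipsilaterally. Alternatives were RLE size factors, no low-count filter, DESeq2 1.42.0, limma 3.58.1 on log2(TPM + 1), the mouse prefix as a covariate, the mouse as a block and each library left out in turn. The analysis scripts were tested on simulated data. The members, the gene lists and the alternatives without mouse a8_11 were chosen with earlier results of these data known.

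The named members were a fixed set by role, the 3 with the highest and the 3 with the lowest mean TPM, the 3 with the largest and smallest spread in each hemisphere, and those that met the study's criteria. Some genes that this rule names are not reported here. Rps12 and others named for counts near 0 were named after their values were seen. The pairing of hemispheres comes from the mouse names in the labels. Over 14387 genes, the deviations of the libraries of a mouse from their group means correlated at -0.03 to 0.32 (median 0.08), over 0.1 in 7 of 17 mice.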

Additional observations from a re-analysis of the deposited data

Results flagged for a closer look

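The ipsilateral library of PTE- mouse a8_11 stood far from the other 7 of its group in the summed level of the 86 ribosomal protein genes, at 31382 TPM. The same library stood apart for Rpl13a, at 567.99 TPM, and for Rpl6, at 450.3 TPM. The contralateral library of that mouse stood apart for Rps2, at 1579 TPM, against a group median of 319.6 TPM. Each value was farther from its nearest neighbour than Dixon's 95% limit for the group size allows.

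Dixon's test was applied to each member in each group, 504 sets in all, and 71 of them (14.1%) held such a library, 66 of them at the high end. The limit is set so that chance gives about 1 in 20 for normally distributed values; TPM values are skewed and include zeros, so this count cannot be read against that rate. Of these, 30 were the ipsilateral library of mouse a8_11, 8 the contralateral library of mouse a8_17 and 7 the contralateral library of mouse a8_11. The members vary together, so these sets are not independent.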

How the results depend on the processing

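The median log2 fold change of the members kept its sign in 110 of 116 fits that left out 1 mouse and in 62 of 69 other alternatives. The number of members meeting the study's criteria stayed within 1.5 times in 99 of 116 and 42 of 69. The number with an adjusted p under 0.05 did in 116 of 116 and 59 of 69.

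In contralateral PTE+ against PTE- the median was 0.27 with limma on log2(TPM + 1), 0.14 with DESeq2 without mouse a8_11 and 0.36 with limma without it, where 1 and 2 members met the criteria. In contralateral PTE- against sham it was -0.048, -0.044 and -0.14 in the same order. On log2(TPM + 1) the median of all genes was itself 0.28 and -0.22 in these comparisons and 0.25 in ipsilateral PTE+ against PTE-, where that of the members was -0.32. In that last comparison the criteria gave 1 member with no low-count filter and 0 with the prefix as a covariate. They gave 15 with DESeq2 and 6 with limma (2.05% and 3.1% of all genes). Without mouse a8_11, DESeq2 and limma gave 4 each (2.57% and 3.31%). In ipsilateral PTE- against sham the criteria gave 1 with RLE, 7 with DESeq2 (2.93%) and 4 with limma (3.46%). Without mouse a8_11, DESeq2 and limma gave 1 and 2 there (3.61% and 4.03%). No share of all genes is given here for the counts with RLE, no low-count filter or the prefix, so those counts cannot be read against one. DESeq2 gave 1 member with an adjusted p under 0.05, Rpl3l, in these 2 comparisons, in ipsilateral against contralateral PTE- and in both tests of the hemisphere difference, with and without mouse a8_11.

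Between hemispheres the criteria gave 1 member with limma in sham and in PTE+ mice (1.2% and 2.32% of all genes). In PTE- mice they gave 8 with DESeq2 and 3 with limma (5.13% and 6.68%). Without mouse a8_11 these tools gave 2 and 3 there, and the DESeq2 median was -0.020. For the hemisphere difference in PTE+ against PTE- limma gave 3 (2.75%), and 3 without that mouse. In PTE- against sham the criteria gave 1 with RLE, 4 with DESeq2 (2.11%) and 3 with limma (3.1%). Without mouse a8_11, DESeq2 and limma gave 1 and 3 there. No share of all genes is given here for the hemisphere counts with RLE or without that mouse, so those counts cannot be read against one. With the mouse as a replicate block, which the pairing by animal allows, 0 members met the criteria in PTE- mice and Rpl6 stood at 0.55; the block moved no other count of calls, and the medians were -0.20, 0.06 and -0.31 in sham, PTE- and PTE+ mice and -0.36 and 0.22 for the hemisphere differences. The share of the members' variance taken by the library shift was 21.4% and 12.97% on log2(TPM + 1), where that of all genes tested was 5.01% and 14.3%.

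With 1 mouse left out, the contralateral medians ran from -0.36 to 0.17 (PTE+ against PTE-), -0.081 to 0.39 (PTE- against sham) and -0.22 to 0.19 (PTE+ against sham). The last turned negative without a8_17, a9_10 or a9_11. Between hemispheres in PTE- mice the median ran from -0.021, without a8_11, to 0.14. The members meeting the criteria ran from 0 to 6 in ipsilateral PTE+ against PTE- (6 without a9_15 and 5 without a9_16, where 0.905% and 0.737% of all genes did, and 0 without a8_9, a8_11, a9_17 or a9_19, where 0.312% to 1.29% did), 0 to 1 in ipsilateral PTE- against sham (0.739% to 2.39% of all genes), 0 to 2 between hemispheres in PTE- mice (0 without a8_11 or a8_14; 2.17% to 3.09%) and 0 to 1 in the hemisphere difference of PTE- against sham (0.549% to 1.53%). The log2 ratio of summed group means ran from -0.013 to 0.27 in contralateral PTE+ against PTE-, -0.091 to 0.15 in PTE- against sham and -0.20 to 0.044 in ipsilateral PTE+ against sham. The cause of these changes was not tested. Depth sets no limit for the 74 members with more than 3 counts in every library; it limits Rpl3l, Rpl10l and Rpl39l.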
